A study of Mus musculus with 8 samples.

Results

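The genes described here are 39 genes that make fatty acids, assemble and break down triglyceride (TG) and coat or remodel lipid droplets, read in RNA from the livers of 8 female mice. They were chosen by name, from a list of enzymes, regulators and droplet proteins, with earlier results of these data known. All 39 were among the 14317 mouse genes of the expression table. They form 5 groups by role: 7 enzymes and carriers of fatty acid synthesis, 3 lipogenic regulators, 11 enzymes of glycerolipid assembly, 7 lipases and lipase cofactors, and 11 droplet proteins.

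Each library is 1 mouse, and there were 4 livers in either group, Con-Veh and Con-DHT. Con-DHT mice carried a 10 mm silastic pellet of dihydrotestosterone (DHT), a potent androgen that is not converted to estrogen, and Con-Veh mice carried an empty pellet. Both groups were fed a western diet (WD), rich in fat, fructose and cholesterol, for 8.5 weeks. The study's methods describe an overnight fast before the tissues were collected. The labels give the genotype of both groups as WT, while the study's methods describe females of a floxed line, 7 weeks old when the pellets were implanted, and no Cre is given for these 8 mice. The comparison asks how androgen excess bears on hepatic lipid handling under a WD. Because the RNA is from whole liver, fewer cells of a type and less RNA per cell cannot be told apart.

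In the liver, cytosolic citrate is cleaved to acetyl-CoA, which acetyl-CoA carboxylase and fatty acid synthase turn into fatty acids, under the transcription factors SREBP-1c and ChREBP. The fatty acids are then placed one after another on glycerol 3-phosphate by acyltransferases, with a phosphatase step by the lipins in between, until the acyl-CoA:diacylglycerol acyltransferases close the TG molecule. TG is stored in droplets that bud from the endoplasmic reticulum, carry a coat of perilipins and are emptied by lipases acting in turn on tri-, di- and monoglycerides. Filling of hepatocytes with such droplets is the steatosis that a WD brings about.

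Expression is given as the normalized count, the reads of a gene divided by 1 scaling factor per library. The libraries held 13123962 to 17815944 reads on mouse genes, and a member had between 9 and 11543 reads in a library. A change was called where limma, run on all 14312 genes with enough expression, gave an adjusted p of at most 0.05. Among the fixed lists of cell type markers, macrophage markers were lower in Con-DHT (4 of 9 called, summed normalized count 6430–7877 in Con-Veh and 4326–5848 in Con-DHT), and so were sinusoidal endothelial markers (2 of 7 called, sums 4225–4643 and 3095–3766). Of 6 listed B and plasma cell markers 3 were measured, and 1 was called lower (sums of the 3, 131–180.3 and 60–119). Of 5 listed T cell markers only Cd4 was in the table, and it was called higher (9.89–13.9 and 25.2–34.8). Of 8 hepatocyte markers 1 was called, Serpina1c, which was higher. Skeletal muscle transcripts stood out in 3 livers, with summed normalized counts of 308 in Con-Veh 2, 2055 in Con-DHT 3 and 1027 in Con-DHT 4 against 16.7–51.7 in the other 5. The part of these differences in the results on the 39 genes was not tested.

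Of the 39 genes, 5 rose in Con-DHT livers and none fell. Those that rose were Lpin2 and Gpat4, of TG assembly, Lipe, a lipase, and Fitm1 and Fitm2, which act in the budding of droplets. The genes called made up 12.8% of the 39, and over all genes tested limma called 7.21%, 4.6% as higher and 2.61% as lower. Unadjusted p-values under 0.05 were found for 12 higher and 4 lower members, where 23.2% of all genes had one. On the recovered reads edgeR called 5 members higher and 0 lower, and 7.15% of all genes, 4.7% as higher. DESeq2 called 8 members higher and 1 lower, and 11% of all genes, 6.45% as higher. The median log2 fold change of the 39 was 0.04, with 22 above 0 and 17 below, against −0.01 over all genes tested. The 7 enzymes and carriers of fatty acid synthesis had log2 fold changes from −0.07 for Fasn to 0.33 for Acaca (limma adjusted p = 0.057). Their median was 0.16, and Acly was at 0.04.

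The 8 values of 7 members did not overlap between the groups, which is 17.9% of the 39 where 15.1% of all genes did not overlap. Of these 6 were higher in Con-DHT and 1 was lower, against 8.49% and 6.62% of all genes. Beside the 5 that rose, these were Gpam, higher in Con-DHT, and Plin4, lower in Con-DHT, neither of which passed the adjusted threshold. Scaling the libraries to the ERCC spike-in RNA shifted the median of all genes to 0.19, and 1 of the 5, Fitm1, was then called, with 4.44% of all genes, 3.92% as higher. With this scaling the log2 fold changes of Lipe, Gpat4, Lpin2 and Fitm2 were 0.78, 0.61, 0.72 and 0.62. Each had an SE of 0.30, where the main fit gave SEs of 0.07 to 0.12. Equal library totals after setting the Mup genes aside shifted the median of all genes to 0.09. Then 9 members were called, all higher, with 9.01% of all genes, 7.56% as higher. Without the 3 livers that held muscle transcripts, which leaves 3 Con-Veh and 2 Con-DHT livers, 1 member was called, again Fitm1, and 256 of all genes. The log2 fold changes of the other 4 were then 0.55 for Lipe, 0.46 for Gpat4, 0.64 for Lpin2 and 0.36 for Fitm2, with adjusted p-values of 0.065 to 0.12.

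**Figure D1:**
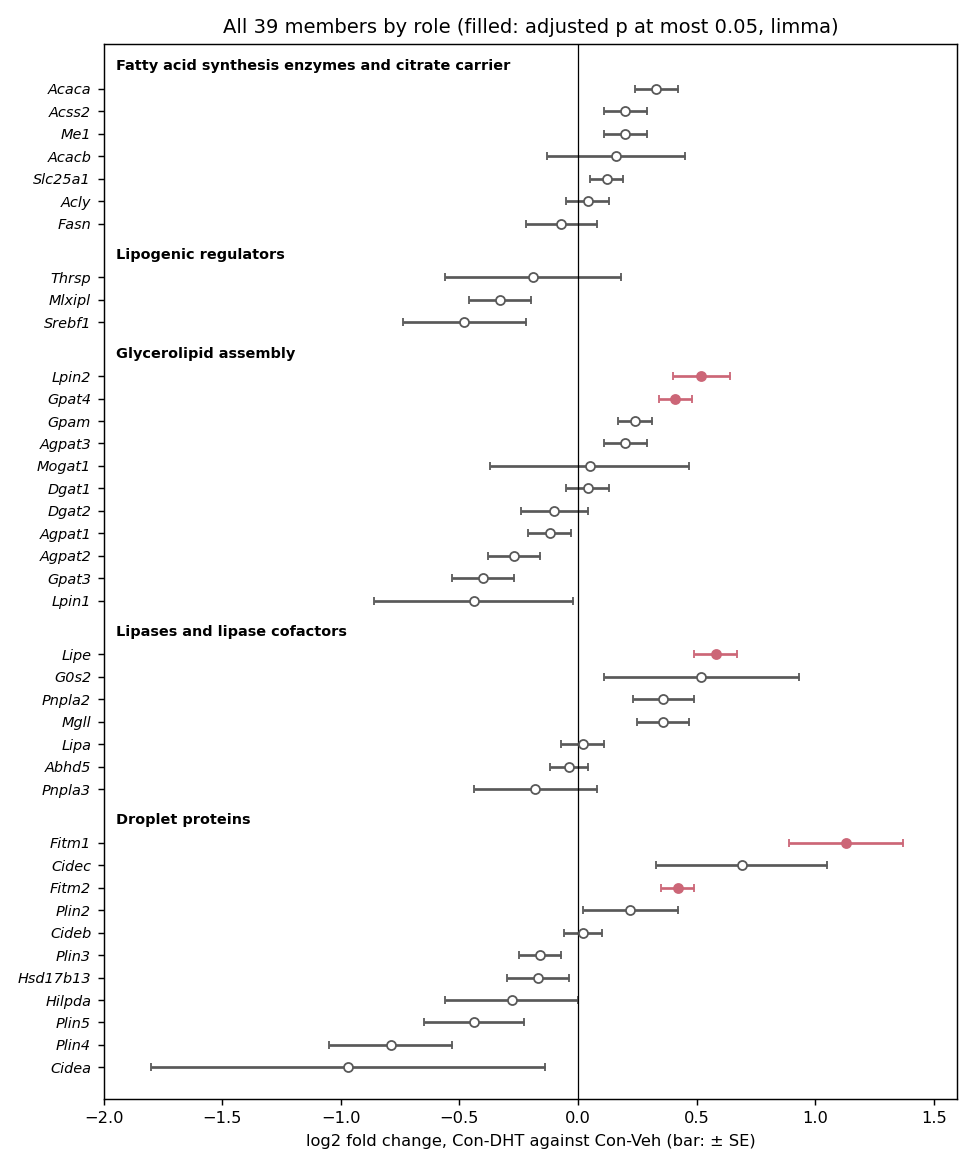
Log2 fold change of each of the 39 genes, Con-DHT against Con-Veh, with its SE as a bar, grouped by role; filled points passed an adjusted p of at most 0.05 in limma. The 5 filled points all lie above 0, between 0.41 and 1.13, and the other 34 range from −0.97 to 0.69.

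Promoter sequence is shown for 4 of the 5 genes that rose, since these are the genes whose transcript level differed. Each line gives the 250 bases before a start site in RefSeq (GRCm38.p6), 5′ to 3′ on the strand of the gene, for Fitm1 at chr14:55575424-55575673 (plus strand), Fitm2 at chr2:163472630-163472879 (minus strand), the more upstream of the Lipe starts at chr7:25395988-25396237 (minus strand) and the most upstream of the Lpin2 starts at chr17:71183282-71183531 (plus strand). Capitals mark an E-box, CACGTG, the hexamer to which bHLH factors such as USF1, USF2 and the ChREBP/MLX pair can bind.
Fitm1: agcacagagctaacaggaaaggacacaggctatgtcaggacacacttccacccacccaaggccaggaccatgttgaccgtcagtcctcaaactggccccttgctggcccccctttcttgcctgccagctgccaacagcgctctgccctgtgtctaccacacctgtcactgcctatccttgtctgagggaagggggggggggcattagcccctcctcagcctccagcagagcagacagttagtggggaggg
Fitm2: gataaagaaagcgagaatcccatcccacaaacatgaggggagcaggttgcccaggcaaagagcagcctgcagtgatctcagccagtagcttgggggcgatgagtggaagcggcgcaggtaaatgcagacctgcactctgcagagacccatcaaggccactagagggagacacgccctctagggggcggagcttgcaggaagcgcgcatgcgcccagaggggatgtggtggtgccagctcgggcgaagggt
Lipe: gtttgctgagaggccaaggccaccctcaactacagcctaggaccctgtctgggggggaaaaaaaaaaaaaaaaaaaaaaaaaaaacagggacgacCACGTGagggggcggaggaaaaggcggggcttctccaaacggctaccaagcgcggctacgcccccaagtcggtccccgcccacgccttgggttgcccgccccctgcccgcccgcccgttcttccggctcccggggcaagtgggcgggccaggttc
Lpin2: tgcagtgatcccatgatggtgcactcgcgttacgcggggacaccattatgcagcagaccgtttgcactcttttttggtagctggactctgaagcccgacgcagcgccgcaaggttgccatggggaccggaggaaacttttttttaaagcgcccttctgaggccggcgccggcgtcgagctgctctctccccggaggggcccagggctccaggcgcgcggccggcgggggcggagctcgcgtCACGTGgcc

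The E-box lies 155 bases before the start of Lipe and 9 bases before the start of Lpin2. The other Lipe window and the other 2 Lpin2 windows in the table held no E-box. Over the 35 members with a promoter in the RefSeq table, 5 of 48 windows held an E-box, where 6.02% of 32851 windows of all genes did. The STAT5 motif TTCNNNGAA was in 1 of the 48 (7.02% of all) and the sterol regulatory element TCACNCCAC in 1 of the 48 (1.05% of all). These motifs were searched on both strands, and no match overlapped another in the windows shown. A match describes the letters of the window and says nothing of binding.

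No enzyme of fatty acid synthesis passed the test. Of the 7, 6 had log2 fold changes above 0, and the range was −0.07 to 0.33 with a median of 0.16. By unadjusted p 3 were higher and 0 lower, edgeR called 0 and DESeq2 called 1. That gene was Acaca, the carboxylase that makes malonyl-CoA for synthesis, with normalized counts of 682, 814, 763 and 733 in the 4 Con-Veh livers and 1004, 1021, 811 and 929 in the 4 Con-DHT livers. The groups met at Con-DHT 3, the only Con-DHT liver inside the Con-Veh range. The means were 748 ± 55.3 (SD, n = 4) in Con-Veh and 941 ± 95.3 (SD, n = 4) in Con-DHT (log2 fold change 0.33, SE 0.09, adjusted p = 0.057). DESeq2 gave an adjusted p of 0.023.

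Slc25a1, the mitochondrial citrate carrier, had the highest level per kb of exon in this group. Its normalized counts were 2103, 1931, 2014 and 2035 in Con-Veh and 2223, 2207, 2038 and 2303 in Con-DHT, and the groups overlapped (log2 fold change 0.12, SE 0.07, adjusted p = 0.32). Fasn, fatty acid synthase, ranged from 1453 to 1930.2 in Con-Veh and from 1185 to 1839 in Con-DHT. The lowest Fasn value of all was in Con-DHT 3, the other Con-DHT livers lying within the Con-Veh range. The remaining 4 were Acacb, the carboxylase that controls fatty acid oxidation, Acly, which cleaves citrate, Me1, which supplies NADPH, and Acss2, which activates acetate. Their log2 fold changes were 0.16, 0.04, 0.20 and 0.20 and their adjusted p-values lay between 0.19 and 0.85.

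None of the 3 lipogenic regulators passed the test either, and all 3 log2 fold changes were below 0. Of the 3, 1 had an unadjusted p under 0.05, with a lower value, and neither edgeR nor DESeq2 called any. Srebf1, which encodes SREBP-1, had normalized counts of 1366, 2442, 3014 and 1758 in Con-Veh and 2181, 1595, 1128 and 1176 in Con-DHT. The spread inside each group was wide, since Con-Veh 1 was below Con-DHT 1 and 2, and Con-Veh 3 was above every other liver (log2 fold change −0.48, SE 0.26, adjusted p = 0.31). Mlxipl, which encodes ChREBP, the carbohydrate-responsive factor, was the most highly expressed of the 3 per kb of exon. Its values were 6399, 8132, 8406 and 6552 in Con-Veh and 6184, 5847, 6654 and 4714 in Con-DHT. Only Con-DHT 3 among the Con-DHT livers exceeded the lower Con-Veh values (log2 fold change −0.33, SE 0.13, adjusted p = 0.15). Thrsp, a lipogenic protein induced by thyroid hormone and carbohydrate, was at 178, 336, 294 and 192 in Con-Veh and 184, 494, 166 and 132 in Con-DHT (log2 fold change −0.19, SE 0.37, adjusted p = 0.81), and Con-DHT 2 was the highest of the 8.

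TG assembly held 2 of the 5 genes that rose, Gpat4 and Lpin2. Gpat4 (ENSMUSG00000031545) encodes an acyltransferase of the endoplasmic reticulum that starts TG synthesis on glycerol 3-phosphate and can move onto growing droplets. Its normalized counts were 3602, 3848, 3896 and 3581 in the 4 Con-Veh livers and 5108, 5048, 4872 and 4786 in the 4 Con-DHT livers. Every Con-DHT liver was above every Con-Veh liver, with little spread in either group. The means were 3732 ± 163 (SD, n = 4) in Con-Veh and 4954 ± 149.9 (SD, n = 4) in Con-DHT, 1.33-fold higher in Con-DHT (log2 fold change 0.41, SE 0.07, adjusted p = 0.0053).

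Lpin2 (ENSMUSG00000024052) encodes lipin 2, a liver-expressed phosphatidate phosphatase that yields the diacylglycerol for TG. It was at 5177, 5727, 5774 and 4631 in Con-Veh and 6796, 9608, 6782 and 7605 in Con-DHT. The groups did not overlap, and Con-DHT 2 stood above the other Con-DHT livers. The means were 5327 ± 538 (SD, n = 4) in Con-Veh and 7698 ± 1330.2 (SD, n = 4) in Con-DHT, 1.45-fold higher (log2 fold change 0.52, SE 0.12, adjusted p = 0.032). Lpin2 was called in 3 of the 8 fits that leave out a liver, and missed the threshold without Con-Veh 1, 2 or 4 or Con-DHT 2 or 4, with adjusted p-values of 0.056 to 0.088.

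The other 9 genes of assembly were not called in limma. Lpin1, the fasting-responsive lipin, had the largest difference of these and the largest spread. Its values were 5643, 3866, 4099.9 and 2514 in Con-Veh and 1154, 5955, 2814 and 3398 in Con-DHT, the lowest and the highest of all 8 livers both being in Con-DHT (log2 fold change −0.44, SE 0.42, adjusted p = 0.58). Dgat2, which adds the last acyl chain of TG, had the highest level per kb of exon of the 39 genes. It was at 8755, 10209, 11523 and 9397 in Con-Veh and 8859, 11093, 10409 and 7243 in Con-DHT, and the groups overlapped over most of their range (log2 fold change −0.10, SE 0.14, adjusted p = 0.74). Dgat1, the other enzyme of this step, was at 439–527 in Con-Veh and 466–544 in Con-DHT.

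Gpam, the mitochondrial acyltransferase that competes with oxidation for fatty acids, had values of 1239, 1432, 1504 and 1453 in Con-Veh and 1660.0, 1682, 1602 and 1698 in Con-DHT. All 4 Con-DHT livers were above all 4 Con-Veh livers, but the adjusted p missed the threshold in limma (log2 fold change 0.24, SE 0.07, adjusted p = 0.08), while DESeq2 gave 0.045. Gpat3, another acyltransferase of the endoplasmic reticulum, was at 278–371 in Con-Veh and 204–281 in Con-DHT (log2 fold change −0.40, SE 0.13, adjusted p = 0.096). In an annotation of GRCm38, 30% of the exon bases of Gpat3 are shared with 4930458D05Rik on the opposite strand, and whether reads were counted by strand is not given in the sources used here. Agpat1, Agpat2 and Agpat3, which add the acyl chain after the first one, had log2 fold changes of −0.12, −0.27 and 0.20. Mogat1, a monoacylglycerol acyltransferase, was near the lower end of the table with normalized counts of 11.8–42.6.

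**Figure D2:**
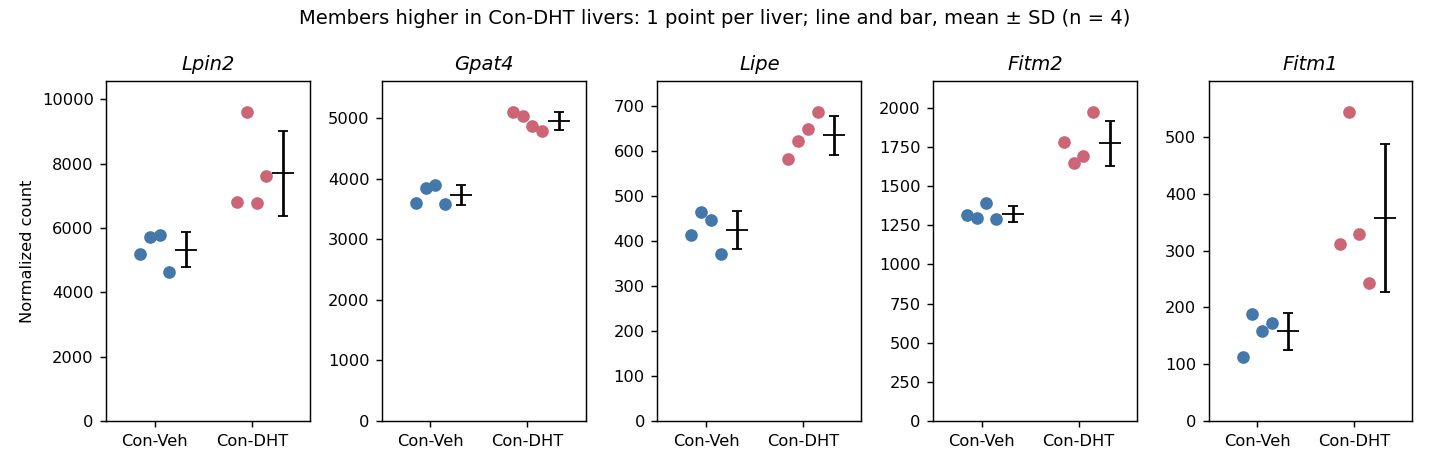
Normalized counts of the 5 genes that rose, with 1 point per liver (4 Con-Veh in blue, 4 Con-DHT in red) and the mean ± SD beside each group; each vertical axis starts at 0 and has its own scale. In all 5 panels the lowest Con-DHT liver lies above the highest Con-Veh liver, and for Lpin2 and Fitm1 Con-DHT 2 is the highest point.

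Among the 7 lipases and cofactors 1 rose, and 5 of 7 log2 fold changes were above 0 with a median of 0.36. Lipe (ENSMUSG00000003123) encodes hormone-sensitive lipase, which cleaves diglycerides and cholesteryl esters and is best known from adipose tissue. Its normalized counts were 413, 465, 447 and 371 in the 4 Con-Veh livers and 582, 622, 648 and 687 in the 4 Con-DHT livers. The lowest Con-DHT liver was well above the highest Con-Veh liver. The means were 424 ± 41.6 (SD, n = 4) in Con-Veh and 635 ± 44.2 (SD, n = 4) in Con-DHT, 1.5-fold higher (log2 fold change 0.58, SE 0.09, adjusted p = 0.0046). Lipe was called in all 8 fits that leave out a liver.

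Adipocyte markers varied between the same livers. The summed normalized count of the 7 markers was 1362–2074 in Con-Veh, 1780 in Con-DHT 1, 1977 in Con-DHT 2, 3616 in Con-DHT 3 and 4413 in Con-DHT 4, and none of the 7 was at 0 in any liver. Limma, edgeR and DESeq2 each called 0 of the 7, and 1 had an unadjusted p under 0.05. In Con-DHT 1 and 2, where that sum lay within the Con-Veh range, Lipe was at 582 and 622. The markers did not move together: in Con-DHT 1 and 2 Ucp1 (246 and 272) and Lep (25.5 and 28.1) were above all Con-Veh livers. The part of adipocyte RNA in the values of Lipe was not tested. Of the exon bases of Lipe 15.6% are shared with the opposite-strand gene 4732471J01Rik.

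The lipases before and after Lipe in the pathway did not pass the threshold. Mgll, monoglyceride lipase, had values of 5521, 6136, 5242 and 6039 in Con-Veh and 7407, 7602, 6072 and 8578 in Con-DHT, and only Con-DHT 3 lay within the Con-Veh range (log2 fold change 0.36, SE 0.11, adjusted p = 0.076). DESeq2 called it, with an adjusted p of 0.021. Pnpla2, which encodes ATGL, the lipase of the first step, was at 2433, 1820.2, 2075 and 1853 in Con-Veh and 2347, 2442, 2415 and 3366 in Con-DHT. Con-DHT 4 was apart from the other Con-DHT livers, which sat near the highest Con-Veh value (log2 fold change 0.36, SE 0.13, adjusted p = 0.13).

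G0s2, the inhibitor of ATGL, had the highest level per kb of exon in this group and the largest difference among those not called. Its values were 1926, 743, 3679 and 1653 in Con-Veh and 2949, 2796, 3002 and 1498 in Con-DHT. The Con-Veh livers alone spanned the whole range of the Con-DHT livers and more (log2 fold change 0.52, SE 0.41, adjusted p = 0.49). Abhd5, the activator of ATGL, was close between the groups, at 306–335 and 294–327. Lipa, the lysosomal acid lipase, was at 2869–3166 and 2574–3380.3. Pnpla3, a lipid droplet protein related to ATGL, was low in every liver, at 12.2–24.1.

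Of the 11 droplet proteins 2 rose, both of the FIT family, and 6 of 11 log2 fold changes were below 0 with a median of −0.16. FIT proteins sit in the endoplasmic reticulum, bind TG and are needed for normal budding of droplets. Fitm1 (ENSMUSG00000022215), which is known mainly from skeletal muscle and heart, had normalized counts of 112, 189, 158 and 172 in Con-Veh and 312, 545, 329.7 and 242 in Con-DHT. No value overlapped, and Con-DHT 2 was the highest. The means were 158 ± 33.1 (SD, n = 4) in Con-Veh and 357 ± 131 (SD, n = 4) in Con-DHT, 2.26-fold higher, the largest change among the 5 genes that passed the test (log2 fold change 1.13, SE 0.24, adjusted p = 0.019). The summed skeletal muscle markers were at 37.7 in Con-DHT 2. Without the 3 livers with more of these transcripts, which also leaves out the lowest Con-DHT value, in Con-DHT 4, the log2 fold change of Fitm1 was 1.5 (adjusted p = 0.047, limma). The part of muscle RNA in the values of Fitm1 was not tested.

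Fitm2 (ENSMUSG00000048486), the widely expressed FIT protein, was at 1314, 1295, 1395 and 1289.8 in Con-Veh and 1781, 1648, 1695 and 1975 in Con-DHT. Here too the groups were apart. The means were 1323 ± 48.6 (SD, n = 4) in Con-Veh and 1775 ± 144 (SD, n = 4) in Con-DHT, 1.34-fold higher (log2 fold change 0.42, SE 0.07, adjusted p = 0.008). Both FIT genes were called in all 8 fits that leave out a liver. Opposite-strand genes share 11.2% of the exon bases of Fitm1 (Gm15932) and 5.72% of those of Fitm2 (2310001K24Rik).

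The coat proteins did not pass the test. Plin4, a perilipin of adipocytes and of steatotic liver, had values of 1641, 1190.0, 1128 and 1329.9 in Con-Veh and 648, 1056, 446 and 1059 in Con-DHT. All Con-DHT livers were lower than all Con-Veh livers, with Con-DHT 1 and 3 lowest (log2 fold change −0.79, SE 0.26, adjusted p = 0.093), and DESeq2 gave an adjusted p of 0.038. Plin5, which ties droplets to mitochondria, was at 2135, 1243, 1309 and 1686 in Con-Veh and 981, 1101, 955 and 1664 in Con-DHT (log2 fold change −0.44, SE 0.21, adjusted p = 0.23). For Plin5 the value of Con-DHT 4 lay among the Con-Veh values.

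Plin2, the main perilipin of the hepatocyte, was at 9519, 7122, 6022 and 7570.1 in Con-Veh and 10491, 8438, 5939 and 10905 in Con-DHT. The lowest and the highest liver were both Con-DHT (log2 fold change 0.22, SE 0.20, adjusted p = 0.55). Plin3, which coats small nascent droplets, was at 805–912 and 662–853. Hsd17b13, a liver droplet enzyme, had the highest level per kb of exon in this group in Con-Veh (2661, against 2152 for Plin2) but not in Con-DHT (2361, against 2546 for Plin2), with values of 5118, 4884, 5919 and 7038 in Con-Veh and 4952, 5861, 5172 and 4382 in Con-DHT, and the groups overlapped (log2 fold change −0.17, SE 0.13, adjusted p = 0.48). Hilpda, an ATGL inhibitor induced by hypoxia, was at 29.95–44.0 and 22.6–53.3. Cideb, the hepatocyte member of the CIDE family, was nearly level at 1148–1360 and 1213–1358, and 76.3% of its exon bases are shared with the opposite-strand gene Nop9.

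Cidea and Cidec, the CIDE proteins that fuse droplets, differed more between Con-DHT livers than between the groups. Cidea was at 96.7, 79.1, 91.8 and 80.1 in Con-Veh and at 155, 166, 13.3 and 9.78 in Con-DHT (log2 fold change −0.97, SE 0.83, adjusted p = 0.54). Con-DHT 1 and 2 were above all Con-Veh livers and Con-DHT 3 and 4 were below them all, so that the group means were nearly equal, at 87.0 and 86.1. Ucp1, the thermogenic protein of brown fat, split the Con-DHT livers in the same way, at 246 and 272 in Con-DHT 1 and 2 and 4.08 and 7.61 in Con-DHT 3 and 4, against 87.0–216 in Con-Veh. Cidec was at 449.6, 387, 334 and 272 in Con-Veh and 351, 406, 575 and 1329.5 in Con-DHT (log2 fold change 0.69, SE 0.36, adjusted p = 0.28), with Con-DHT 4 far above the rest. Of the 7 adipocyte markers, Adipoq, Cfd, Retn and Fabp4 were also highest in Con-DHT 3 and 4: Adipoq was at 228 and 289 there against 114–151 in the other 6 livers, and Cfd at 1713 and 2033 against 307–502. Plin1 and Lep did not follow this order, being lowest of all livers in Con-DHT 3 (67.4 and 1.02) and highest in Con-DHT 4 (172 and 30.4). The part of these transcripts in the values of Cidea and Cidec was not tested.

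**Figure D3:**
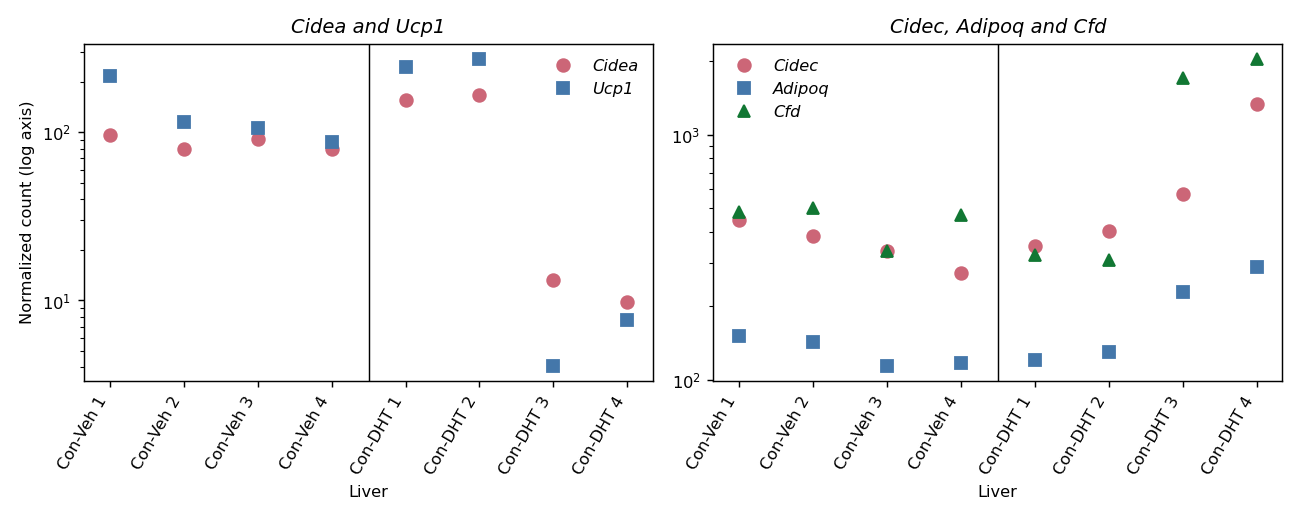
Normalized counts, on a log axis, of Cidea with Ucp1 (left) and of Cidec with Adipoq and Cfd (right) in each of the 8 livers. Cidea and Ucp1 are both lowest in Con-DHT 3 and 4 (Cidea 13.3 and 9.78), and Cidec, Adipoq and Cfd are all highest in Con-DHT 4.

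The make-up of enzyme and coat families is given here as a description. Shares were taken of the summed normalized count per kb of exon in each liver, over 8 families with 21 members, and were not tested, since the share of a member depends on the others. The shares of 6 of the 21 did not overlap between the groups, of which Gpat4 alone passed the test on its own level, and no background share of such values was computed. Among the perilipins Plin2 held 63.8% ± 1.96 (SD, n = 4) in Con-Veh and 73.5% ± 4.32 in Con-DHT, where Plin5 held 22.5% ± 2.08 and 16.5% ± 2.94 and Plin4 held 6.81% ± 0.15 and 3.98% ± 1.14. The summed perilipins overlapped, at 2778–4247 per kb in Con-Veh and 2416–4311 in Con-DHT.

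Among the glycerol-3-phosphate acyltransferases Gpat4 held 64.9% ± 1.97 (SD, n = 4) in Con-Veh and 70.0% ± 1.28 in Con-DHT, and Gpat3 held 10.6% ± 1.46 and 6.49% ± 0.92. Their sum was higher in every Con-DHT liver, at 1040.2–1079 per kb against 805–889.7. Agpat3 held 31.5% ± 1.67 of the 1-acylglycerol-3-phosphate acyltransferases in Con-Veh and 38.7% ± 2.58 in Con-DHT. The summed FIT genes were at 447–521 per kb in Con-Veh and 748–977 in Con-DHT. Since Fitm1 and Fitm2 were each higher in every Con-DHT liver, their sum could not overlap.

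**Figure D4:**
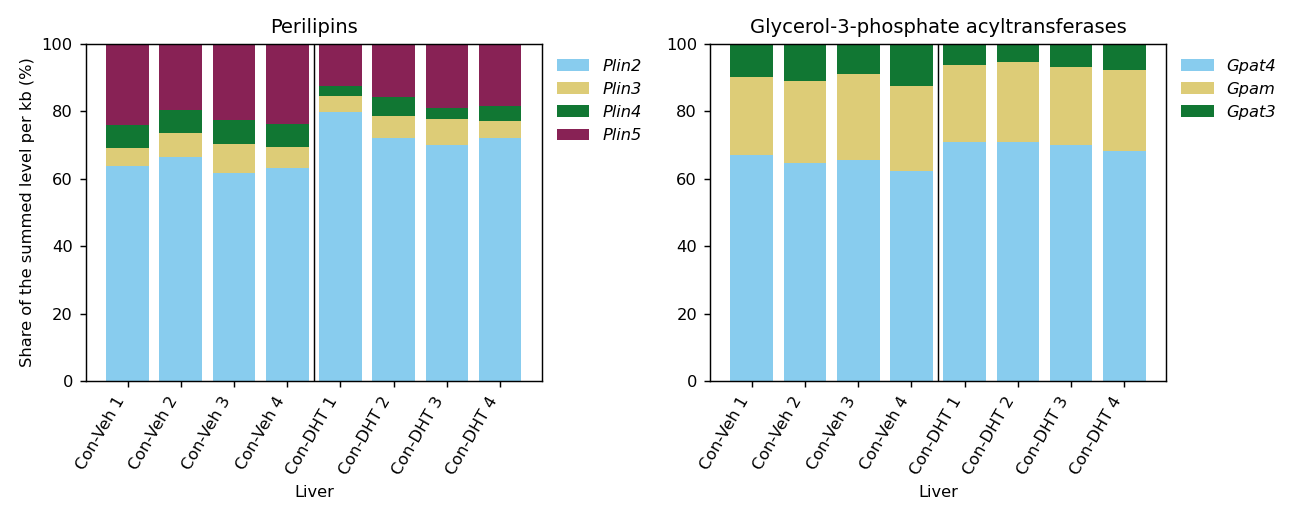
Share (%) of each member in the summed normalized count per kb of exon of the perilipins (left) and of the glycerol-3-phosphate acyltransferases (right), with 1 stacked bar per liver, 4 Con-Veh and 4 Con-DHT. Plin2 takes 61.7–66.4% of the perilipins in Con-Veh and 70.0–79.8% in Con-DHT, and Gpat4 takes 62.3–67.0% and 68.1–70.9% of the acyltransferases.

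The livers of a group were not high or low for all of these genes at once. Con-DHT 4 was the highest Con-DHT liver for 17 of the 39 genes and the lowest for 12, where over all genes tested it was highest for 27.9% and lowest for 27.3%. Con-DHT 2 was highest for 12 and lowest for 4, against 23.7% and 24.3% of all genes. In Con-Veh, Con-Veh 1 was the highest for 12 genes and the lowest for 13, against 28.7% and 28.5% of all genes. The median deviation of the 39 genes from their group means lay between −0.05 and 0.05 on the log2 scale in each liver.

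**Figure D5:**
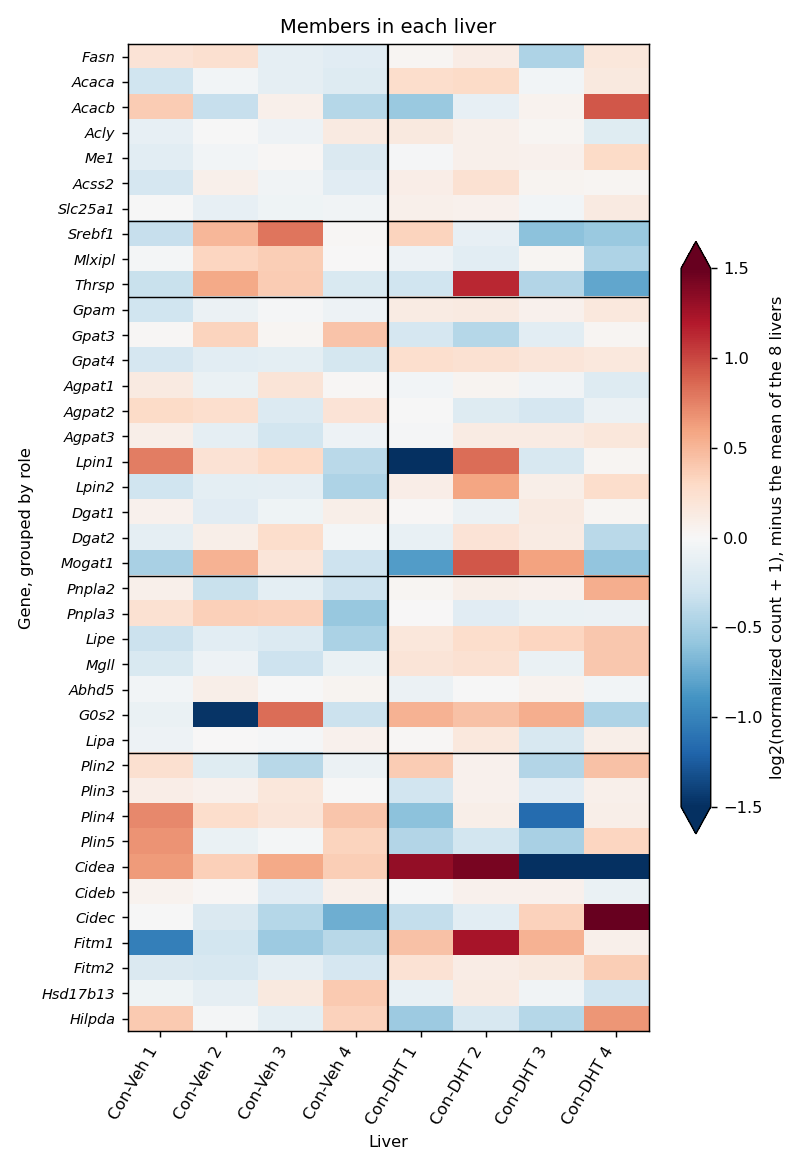
Log2(normalized count + 1) of each of the 39 genes in each of the 8 livers, as the difference from the mean of the 8 livers; red is higher, blue is lower, the vertical line parts the groups and horizontal lines part the roles. Gpat4, Lipe, Fitm1 and Fitm2 are red in all 4 Con-DHT livers and blue in all 4 Con-Veh livers, whereas Cidea and Lpin1 are both red and blue within Con-DHT.

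Of 55 further genes of the pathway, 53 were in the table, of which 2 rose, 2 fell and 49 were not called. The share called was 7.55%, near the 7.21% of all genes tested. G6pdx, the first enzyme of the pentose phosphate route to NADPH, was at 108, 113, 109 and 91.4 in Con-Veh and 198, 218, 176 and 209 in Con-DHT, 1.9-fold higher by the means with no overlap (log2 fold change 0.92, SE 0.11, adjusted p = 0.0013). Ddhd2, a TG hydrolase and phospholipase, was at 341, 299, 316 and 307 and 537, 398, 408 and 549 (log2 fold change 0.57, SE 0.12, adjusted p = 0.019). Both of these rose, and Ddhd2 missed the threshold without Con-Veh 2, Con-Veh 4 or Con-DHT 1 (adjusted p of up to 0.057, limma) and with spike-in scaling (adjusted p = 0.17).

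The genes that fell were Pklr and Lipc. Pklr, the liver pyruvate kinase and a known target of ChREBP, was at 1165, 1317, 1323 and 1175 in Con-Veh and 889, 986, 755 and 799 in Con-DHT (log2 fold change −0.54, SE 0.09, adjusted p = 0.0078). Lipc, hepatic lipase, was at 2671, 3218, 3674 and 3413 and 2667, 2522, 2416 and 2153, and the lowest Con-Veh liver was just above the highest Con-DHT liver (log2 fold change −0.41, SE 0.11, adjusted p = 0.047). Lipc was near the threshold: edgeR gave an adjusted p of 0.053, the fit with equal totals after setting the Mup genes aside 0.12 and spike-in scaling 0.93 (log2 fold change −0.21). Of the 8 fits that leave out a liver, the one without Con-Veh 1 called Lipc, and the other 7 did not, with adjusted p-values of up to 0.12. With spike-in scaling Pklr had a log2 fold change of −0.34, or −0.53 less the median of all genes, and a limma adjusted p of 0.88. Pklr was called in all 8 fits that leave out a liver, by edgeR (adjusted p = 0.0088) and by DESeq2 (adjusted p = 3.9e-05). Without the 3 livers with muscle transcripts it was at −0.38 and was not called (limma adjusted p = 0.13).

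By role, 0 of 17 further regulators, 0 of 7 assembly genes and 0 of 12 droplet proteins were called in limma. Unadjusted p-values under 0.05 were found for 6 of the regulators, 0 of the assembly genes and 2 of the droplet proteins. Over all genes tested 23.2% had one. For these 3 groups edgeR called 0, and DESeq2 called 2 regulators and none of the others. Those 2 were Ppara, the fasting-induced regulator of fatty acid oxidation, at 0.46 on the log2 scale (SE 0.14, limma adjusted p = 0.07), and Ppargc1b, a coactivator of SREBP-1, at 0.65 (SE 0.21, limma adjusted p = 0.096). Of the 9 further lipases DESeq2 called 1 higher and 2 lower, the latter being Lipc and Ces1g, a carboxylesterase. Ces1g had the lowest log2 fold change of the 53 genes, −0.81 (SE 0.23, limma adjusted p = 0.065, DESeq2 adjusted p = 0.017), and its groups overlapped.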

How the data were processed

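Liver RNA of female mice on a WD was sequenced (Con-Veh, n = 4, and Con-DHT, n = 4). Groups and replicate numbers were taken from the labels. Per the labels' processing notes, reads were handled with Trimmomatic, STAR, featureCounts (Subread) and DESeq2 on GRCm39. Those notes give no versions, while the study's supplement names them for Trimmomatic, STAR and Subread. The values were deposited as a normalized signal: reads per gene over the DESeq2 size factor of the library, with ERCC spike-in rows kept. Dividing each column by its smallest step gave whole reads for 100% of values (tolerance 0.01), 13123962 to 17815944 on mouse genes per library. No row held fewer than 81 reads over the 8 libraries, so a filter on low counts had been applied before deposit. All columns belonged to a sample. Within a group, pairs of libraries differed beyond sampling noise (chi-square per degree of freedom 19.14 to 61.18 over 12 pairs). The labels do not say whether mice were treated in separate cohorts. The p-values set the difference between groups against the spread between these mice. They would not show a cohort difference that coincided with the groups.

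The 14312 mouse genes whose mean value reached 10 were tested on log2(value + 1) in R 4.3.3 with limma 3.58.1 (eBayes, trend = TRUE), two-sided, all 8 libraries, no covariates, with Benjamini-Hochberg adjustment over all genes and a threshold of 0.05. Fold changes are on the log2(value + 1) scale, which understates changes of low genes. As alternatives edgeR 4.0.16 (quasi-likelihood, TMM) and DESeq2 1.42.0 (Wald) were run on the recovered reads, beside other pseudocounts, filters and scalings, a replicate block, and leaving out each liver. The scripts were tested on simulated data. Levels per kb divide the value by the union of exons in GENCODE M21 (GRCm38), used for lengths and overlaps only. Promoters are from RefSeq (GRCm38.p6), where 35 of 39 genes had an entry. A further motif that was searched is not reported here.

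The members and lists were chosen with earlier results of these data known. Genes that passed the test are given with all 8 values, and in each role the gene with the highest level per kb and the uncalled gene with the largest change are also described. Acaca, Mgll, Pnpla2, Gpam, Gpat3, Plin2, Plin4, Plin5, Cidec, Thrsp, Ppara, Ppargc1b and Ces1g, with the gene families and the skeletal muscle markers, were chosen after their values were seen.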

Additional observations from a re-analysis of the deposited data

Results flagged for a closer look

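In total 3 groups of values held a liver far from the other 3 of its group (gap over range above Dixon's critical value), out of 78 groups examined; chance gives about 1 in 20. Thrsp was at 493.5 in Con-DHT 2, against 131.5 to 183.5 in the other Con-DHT livers. Pnpla2 was at 3365.5 in Con-DHT 4, against 2346.7 to 2441.6. G0s2 was at 1497.9 in Con-DHT 4, against 2795.8 to 3001.6.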

How the results depend on the processing

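Over 13 alternative settings and 8 fits that each leave out 1 liver, none of the 5 called members changed sign. Of the 34 uncalled members 15 changed sign in some alternative, 8 of them with spike-in scaling, and 6 (Acaca, Agpat2, Agpat3, Gpam, Mgll and Plin4) were called in at least 1. In the main test 1032 genes were called, with 5 members and 4 other pathway genes. Requiring a mean of at least 50 gave 648 genes. Scaling to the spike-ins gave 636 genes, 1 member and 1 other pathway gene, and DESeq2 gave 1569, 9 and 7. Equal library totals after setting the Mup genes aside gave 9 members. The share of calls that were higher was 63.8% in the main test. It became 83.9% with those equal totals and 88.2% with spike-in scaling, where the median of all genes was 0.09 and 0.19. The equal totals took the place of the deposited scaling factors. The Mup genes themselves held 0.145% of mouse reads in Con-Veh 1 and 1.085% in Con-DHT 4, the lowest and highest shares. Under spike-in scaling the log2 fold changes less the median of all genes were 0.59 for Lipe, 0.42 for Gpat4, 0.43 for Fitm2, 0.53 for Lpin2 and 1.14 for Fitm1. Leaving out the 3 livers with muscle transcripts, an alternative chosen after seeing the data, gave 256 genes, 1 member and 1 other pathway gene, with 5 livers in the fit. The cause of these changes was not tested.

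Leaving out 1 liver gave 633 to 905 genes, 4 to 7 members and 2 to 4 other pathway genes. The count of all genes fell to 648 without Con-Veh 2, 633 without Con-Veh 4, 659 without Con-DHT 1 and 662 without Con-DHT 2, and 2 other pathway genes were called without Con-Veh 2, Con-Veh 4 or Con-DHT 1. Lpin2 also missed the threshold without an intensity trend (adjusted p = 0.066 in limma). Groups share replicate numbers, but same-numbered livers did not deviate together (correlations of −0.186, −0.006, −0.022 and −0.076), and a fit with the replicate block called 700 genes, 5 members and 3 other pathway genes. With 4 livers a group, changes that are small against their SE are not detectable. The SEs of members ranged from 0.07, as for Gpat4 and Fitm2, called at 0.41 and 0.42, up to 0.83 (Cidea).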

Other observations

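The spread of the 39 genes between livers was of the size seen for all genes. The median coefficient of variation was 11.97% in Con-Veh and 13.27% in Con-DHT, against 13.12% and 13.44% over all genes tested. In Con-DHT it was larger than in Con-Veh for 24 of the 39 genes (61.5%), where 51.4% of all genes had the larger one in Con-DHT. Cidea had the widest spread in Con-DHT, 100.2%, and Gpam the narrowest, 2.52%. In Con-Veh the widest was that of G0s2, 61.4%, and the narrowest that of Slc25a1, 3.5%.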
